A study of Mus musculus with 45 samples.

Results

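The tripartite motif (TRIM) genes were followed in primary mouse embryonic fibroblasts given an inflammatory stimulus. A gene was taken as a TRIM gene when its Ensembl identifier mapped to a mouse symbol made of Trim, digits and at most 1 letter, and when it reached at least 1 CPM (the count scaled to the library's total over genes) in at least 2 of the 45 libraries. The file held 67 such symbols, of which 41 passed, among 13851 genes past the same filter. The other 26 stayed at or below 0.865 CPM in every library, and 5 of them had no count anywhere. Just inside the filter were Trim69, with 2 libraries at 1 CPM or more, and Trim30c, with 3 libraries. Trim30c, Trim69 and Trim14 (5 libraries) reached 1 CPM in LPS libraries at 3 or 8 h alone, so the filter itself kept them for a high LPS level. Just outside were Trim5, which peaked at 0.865 CPM, and Trim9, at 0.661 CPM. In 32 of the 41 genes every library held at least 1 CPM.

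The cells came from C57BL/6 embryos and were either p53-/- (p53KO; 2 series of libraries named KO-1 and KO-2) or WT (1 series). All were starved overnight in 0.5% calf serum, then given 10 ng/ml IL-1b, 10 ng/ml TNF or 100 ng/ml LPS and sampled at 0, 0.5, 1, 3 and 8 h, so that each p53KO group has 2 libraries and each WT group 1. Each stimulus had its own 0 h libraries. The labels do not say whether KO-1 and KO-2 came from separate embryos, so p-values measure the spread between these libraries, which may be technical. WT groups carry no replicate, and their tests assume the spread of the p53KO pairs.

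TRIM proteins carry a RING finger, B-boxes and a coiled coil, and most act as E3 ubiquitin ligases whose C-terminal domain, often a SPRY domain, picks the substrate. TRIM25 ubiquitinates the RNA sensor RIG-I, TRIM21 is a cytosolic receptor for antibody, and several family members restrict viruses or tune NF-kB and interferon signalling. LPS acts through TLR4, whose TRIF branch leads to interferon beta, while IL-1b and TNF act through NF-kB and MAP kinases. Interferon-responsive genes often carry an interferon-stimulated response element (ISRE), the site of interferon regulatory factors, near their start.

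RefSeq promoters (GRCm38.p6, 250 bases before to 50 after the start, strand of the gene, 5′ to 3′) were matched by symbol to 32 of the 41 genes. They are shown for 5 genes called higher after LPS alone, which hold ISRE letters, and for Trim25 and Trim47, which were called higher after LPS and cytokines and hold none. Capitals mark the ISRE letters searched on both strands: GAAA, any 2 bases and GAAA, which read from the opposite strand are TTTC, any 2 bases and TTTC.
Trim21, chr7:102565433-102565732, reverse strand: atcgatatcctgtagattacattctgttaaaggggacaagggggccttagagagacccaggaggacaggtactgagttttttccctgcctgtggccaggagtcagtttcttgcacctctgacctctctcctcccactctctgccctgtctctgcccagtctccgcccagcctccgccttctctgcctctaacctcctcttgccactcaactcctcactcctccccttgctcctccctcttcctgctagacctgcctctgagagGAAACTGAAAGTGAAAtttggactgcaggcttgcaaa
Trim30a, chr7:104465144-104465443, reverse strand: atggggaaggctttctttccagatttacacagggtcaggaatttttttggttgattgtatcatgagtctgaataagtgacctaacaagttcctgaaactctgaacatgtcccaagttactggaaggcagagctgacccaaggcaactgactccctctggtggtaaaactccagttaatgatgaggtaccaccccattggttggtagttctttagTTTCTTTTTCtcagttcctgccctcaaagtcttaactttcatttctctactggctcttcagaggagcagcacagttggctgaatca
Trim30d, chr7:104507800-104508099, reverse strand: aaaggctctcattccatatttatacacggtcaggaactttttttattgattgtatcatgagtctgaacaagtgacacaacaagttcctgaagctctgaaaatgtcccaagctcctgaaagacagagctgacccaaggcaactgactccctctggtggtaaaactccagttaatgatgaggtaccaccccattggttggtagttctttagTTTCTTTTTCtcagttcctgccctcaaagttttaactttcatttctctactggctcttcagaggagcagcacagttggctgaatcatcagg
Trim12c, chr7:104353300-104353599, reverse strand: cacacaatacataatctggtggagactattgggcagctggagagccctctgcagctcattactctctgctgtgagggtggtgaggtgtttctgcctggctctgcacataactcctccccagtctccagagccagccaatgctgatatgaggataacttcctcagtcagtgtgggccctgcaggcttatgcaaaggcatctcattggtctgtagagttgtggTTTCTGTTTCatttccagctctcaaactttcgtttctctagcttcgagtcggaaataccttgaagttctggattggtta
Trim34a, chr7:104244207-104244506, forward strand: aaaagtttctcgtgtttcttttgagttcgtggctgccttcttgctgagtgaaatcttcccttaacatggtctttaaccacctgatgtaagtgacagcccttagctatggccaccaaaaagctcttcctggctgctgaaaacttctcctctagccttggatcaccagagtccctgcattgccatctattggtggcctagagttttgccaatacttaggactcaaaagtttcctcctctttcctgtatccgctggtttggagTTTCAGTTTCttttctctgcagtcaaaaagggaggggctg
Trim25, chr11:88999153-88999452, forward strand: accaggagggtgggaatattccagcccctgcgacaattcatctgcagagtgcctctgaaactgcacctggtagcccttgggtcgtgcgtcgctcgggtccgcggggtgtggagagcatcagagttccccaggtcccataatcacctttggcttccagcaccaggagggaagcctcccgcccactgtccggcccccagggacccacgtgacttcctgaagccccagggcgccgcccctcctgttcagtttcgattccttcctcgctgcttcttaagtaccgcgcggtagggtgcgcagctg
Trim47, chr11:116110186-116110485, reverse strand: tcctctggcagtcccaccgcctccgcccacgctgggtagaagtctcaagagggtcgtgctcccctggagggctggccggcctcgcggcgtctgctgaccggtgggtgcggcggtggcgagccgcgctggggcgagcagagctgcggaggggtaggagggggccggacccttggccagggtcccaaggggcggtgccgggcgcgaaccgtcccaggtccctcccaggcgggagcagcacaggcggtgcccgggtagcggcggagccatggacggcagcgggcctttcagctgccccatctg
The 32 genes had 45 promoters, 8 of them having more than 1. ISRE letters stood at any start of 8 of the 32 genes, against 3.77% of the 10340 genes past the filter that have such a promoter and 3.44% of all 32851 promoters. In Trim21 the matches GAAACTGAAA and GAAAGTGAAA overlap and begin 14 and 20 bases into the transcribed part. In Trim30a and Trim30d, the match TTTCTTTTTC begins 36 and 41 bases before the start. These promoters share a run of 118 identical bases, and those of Trim12a and Trim12c share a run of 71. Neighbours in this cluster are thus not independent examples. Their genes lie in mm9, the build of the files, on chromosome 7 at 109706436 to 109713983 (Trim21), 111557539 to 111613707 (Trim30a), 111618528 to 111656363 (Trim30d), 111487268 to 111501876 (Trim12c) and 111392971 to 111489207 (Trim34a), and on chromosome 11 at 88860690 to 88881607 (Trim25) and 115967066 to 115988524 (Trim47).

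The libraries held 5619870 to 15355994 gene counts (median 9347770). Trp53 was at 53 to 88.6 CPM in p53KO (median 66.9, n = 30) and 159 to 296 CPM in WT (median 191, n = 15), lower in p53KO by 1.64 on the log2 scale, and reads outside a deleted part would still be counted. Fibroblast markers summed to 29192 to 38278 CPM. The 10 macrophage markers were present in all 45 libraries and summed to 393 to 496 CPM at 3 h and 426 to 532 CPM at 8 h of LPS in p53KO, against 353 to 398 CPM at 0 h, and to 547 and 527 CPM in WT, against 421 CPM. Sums also rose with cytokines, in p53KO to 451 to 520 CPM at 8 h of IL-1b and 486 to 502 CPM at 8 h of TNF, against 342 to 375 and 318 to 347 CPM. In WT these were 522 and 548 CPM, against 421 and 403 CPM. Single markers differed. Over p53KO libraries Cd14 ran from 13.7 to 94.9 CPM (0 h median 13.9) and Cx3cr1 from 3.99 to 23.9 CPM (0 h median 21.1). In these bulk libraries fewer cells of a type and less RNA per cell cannot be told apart, and the part of such cells in the LPS changes was not tested.

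Classes were set from the calls in p53KO cells at 1, 3 and 8 h, a call being an adjusted p under 0.05 (edgeR quasi-likelihood test, Benjamini-Hochberg over all 13851 genes). Those calls describe the classes and are no test of them. LPS-only held 11 genes, which is 26.8% of the TRIM genes against 6.14% of all genes: Trim12a, Trim12c, Trim14, Trim21, Trim26, Trim30a, Trim30c, Trim30d, Trim32, Trim34a and Trim45. Higher after LPS and at least 1 cytokine were 9 genes (22%, against 22.8% of all genes): Trim8, Trim16, Trim25, Trim27, Trim28, Trim39, Trim47, Trim56 and Trim65. Genes were placed by their higher calls. A lower call at another stimulus or time was also made for 5 LPS-only genes (Trim12a, Trim12c, Trim26, Trim32 and Trim45) and for 4 of these 9 (Trim16, Trim27, Trim28 and Trim39). Higher after a cytokine and never after LPS was Trim36 alone (2.44%, against 8.38% of all genes). Called lower at least 1 time and never higher were 15 genes (36.6%, against 34.7%), and 5 genes had no call (12.2%, against 27.9%). Without Trim14, Trim30c and Trim69, LPS-only held 9 of 38 genes. A requirement of at least 2-fold also put 11 genes in LPS-only, of which 8 were the same: Trim26, Trim32 and Trim45 left and Trim25, Trim56 and Trim65 joined.

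ISRE letters stood in 7 of the 10 LPS-only genes with a promoter (Trim12a, Trim12c, Trim21, Trim26, Trim30a, Trim30d and Trim34a) and in 0 of 6 genes higher after LPS and cytokines. Of 13 lowered genes with a promoter 1 had them (Trim2, at 1 of its 5 starts), as did 0 of 3 with no call. NF-kB letters (GGGNNTTCC, both strands) stood in 1 gene, Trim71, against 8.38% of genes past the filter. This pattern has a fixed length, so longer NF-kB sites were not searched and may stand in these promoters. The letters TTCNNNGAA of a gamma-activated site stood in 3 genes, Trim30c, Trim45 and Trim46, against 8.2%. The 9 genes with no entry were Trim3, Trim8, Trim11, Trim14, Trim16, Trim33, Trim35, Trim36 and Trim65.

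**Figure D1:**
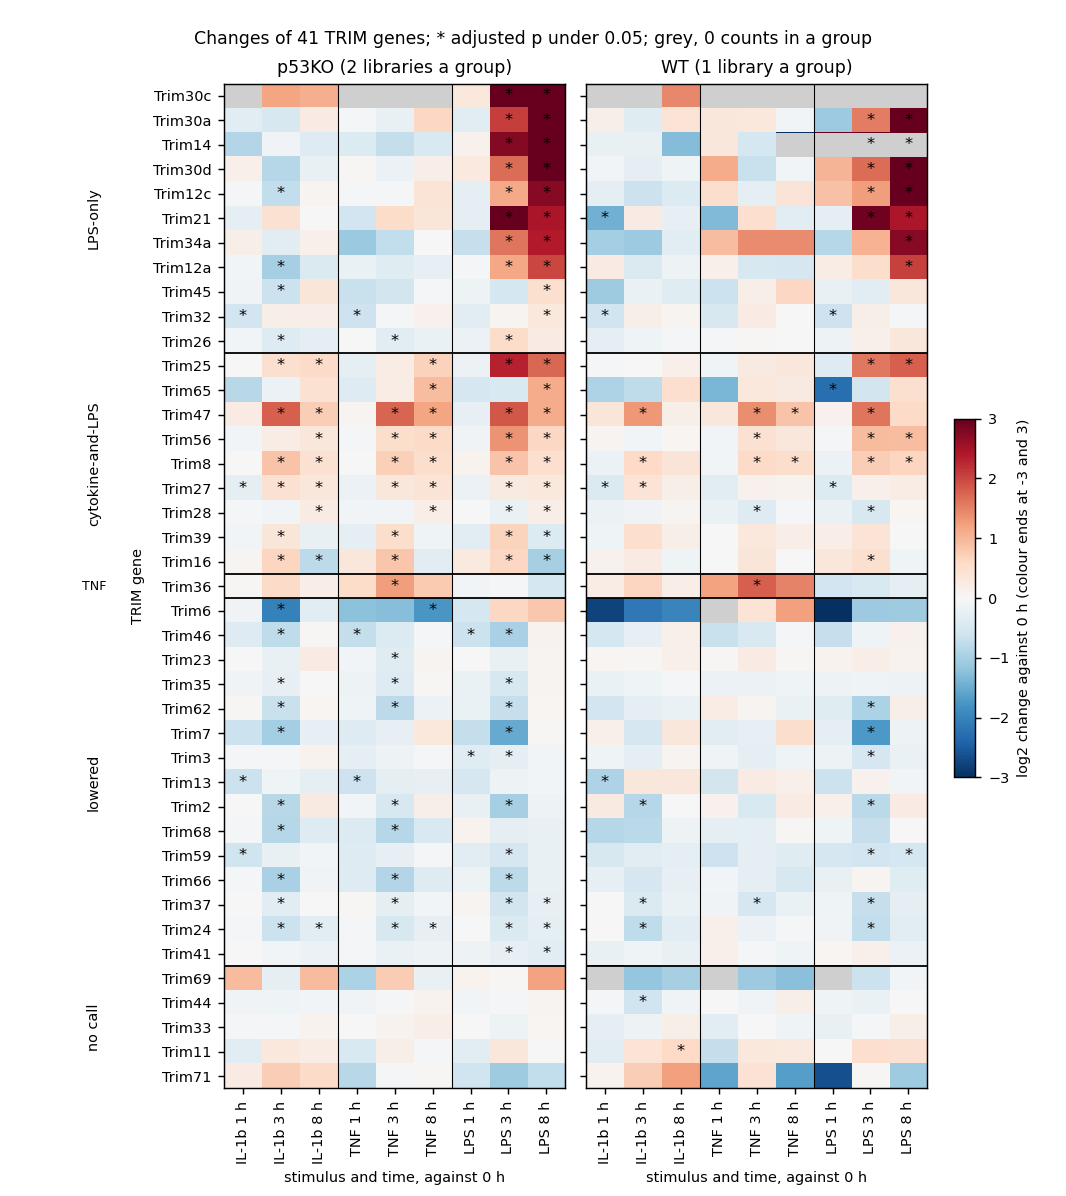
Log2 change against 0 h of the same series for 41 TRIM genes (rows, grouped by response class and ordered by LPS 8 h) in p53KO cells at left (2 libraries a group) and WT cells at right (1 library a group), with stars at adjusted p under 0.05 and grey where a group had 0 counts. The LPS-only block is red mainly in the LPS 3 h and 8 h columns of both panels, while Trim47 and Trim8 are red at 3 h of all 3 stimuli.

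The LPS response of the TRIM genes appeared between 1 and 3 h. In p53KO cells 16 of 41 TRIM genes were called higher at 3 h of LPS (21.9% of all genes) and 12 lower (22.1% of all genes). At 8 h, 17 were higher (17% of all genes) and 5 lower (17.2% of all genes). Without Trim14, Trim30c and Trim69 the higher counts were 14 of 38 at 3 h and 15 of 38 at 8 h. The median log2 change of the 41 genes was -0.02 at 3 h and 0.11 at 8 h, against -0.02 at both times over all genes. At 0.5 h of LPS no TRIM gene was called higher (0.433% of all genes) or lower (0.0939%), with 1 in each direction at an unadjusted p under 0.05 and 0 by DESeq2. At 1 h 0 were higher (2.79% of all genes), with 1 at an unadjusted p under 0.05 and 0 by DESeq2. The 2 called lower at 1 h (2.52% of all genes), Trim3 and Trim46, lost the call without any 1 of the 4 libraries in that comparison and by DESeq2. With KO-1 and KO-2 as a block, 5 were lower at 1 h.

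Trim30a, which in mouse dampens TLR-driven NF-kB signalling, had the largest rise among genes with more than a few counts at 0 h. At 8 h of LPS it stood at 133 and 126 CPM in p53KO and 43.2 CPM in WT, against 6.10 and 3.34 CPM in p53KO and 3.21 CPM in WT at 0 h. Every LPS 8 h library lay far above every library of the other stimuli (the highest p53KO level after IL-1b or TNF was 7.67 CPM). The log2 change was 4.90 (SE 0.22, adjusted p 1.16e-15) in p53KO and 3.80 (SE 0.36, adjusted p 9.84e-09) in WT. Its neighbour Trim30d, a paralog, held 51.2 and 43.1 CPM in p53KO and 23.3 CPM in WT at 8 h, against 6.71 and 2.44 CPM in p53KO and 1.72 CPM in WT. The groups did not overlap, and the log2 change was 3.49 (SE 0.26, adjusted p 2.99e-11) in p53KO and 3.80 (SE 0.47, adjusted p 1.09e-06) in WT. With the block Trim30d was called lower at 3 h of IL-1b (-0.86, adjusted p 0.0353). Reads are shared to a degree, since 5.98% of the 50-base windows of Trim30a and 7.49% of those of Trim30d also occur in another gene. Trim30c, another paralog, had 45 counts in the p53KO pair at 8 h of LPS and 1 at 0 h, a ratio of 47.2 (95% counting interval 8.05 to 1910). At 3 h it had 19 counts, a ratio of 23.3 (3.7 to 968), and DESeq2 made neither call. Since it passed the filter through LPS libraries alone, these values are a description. In WT it had 5 counts at 3 h and 4 at 8 h, against 0 at 0 h, at least 1.80-fold and 1.20-fold higher with the 0 h library set at a floor of 3 counts.

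Trim21 had the largest fitted 3 h change in p53KO among the genes that did not pass the filter through LPS libraries alone. It reached 78.5 and 62.6 CPM in p53KO and 22.8 CPM in WT at 3 h of LPS, against 4.47 and 5.15 CPM in p53KO and 3.43 CPM in WT at 0 h. By 8 h the p53KO libraries were down to 27.1 and 22.1 CPM and the WT library held 17.9 CPM. The log2 change in p53KO was 4.07 (SE 0.16, adjusted p 8.14e-17) at 3 h and 2.45 (SE 0.17, adjusted p 7.84e-12) at 8 h, and in WT 2.91 (SE 0.27, adjusted p 6.4e-09) and 2.43 (SE 0.27, adjusted p 2.45e-07). Its place in LPS-only was narrow. At 3 h its log2 change was 0.46 after IL-1b (adjusted p 0.0522) and 0.55 after TNF (adjusted p 0.0512), and with the block both passed (adjusted p 0.0392 and 0.0427).

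Trim12c, Trim12a and Trim34a, also on chromosome 7, were called higher at 3 h and 8 h of LPS in p53KO. Trim12c, a mouse relative of the human capsid-binding factor TRIM5, stood at 56.4 and 48.7 CPM in p53KO and 37.4 CPM in WT at 8 h of LPS, against 8.94 and 8.04 CPM in p53KO and 4.12 CPM in WT at 0 h. The change was 2.73 on the log2 scale (SE 0.14, adjusted p 1.59e-14) in p53KO and 3.23 in WT (SE 0.23, adjusted p 8.97e-11). Trim12a, its near copy, was at 22.6 CPM in both p53KO libraries and 16.6 CPM in WT, against 6.30 and 5.69 CPM in p53KO and 4.12 CPM in WT. Trim34a, a paralog, was at 14.1 and 11.9 CPM in p53KO and 11.8 CPM in WT, against 2.74 and 2.62 CPM in p53KO and 1.83 CPM in WT. For these genes, too, each LPS 8 h library lay above every 0 h library, with log2 changes of 2.01 and 2.37 in p53KO and 2.06 and 2.73 in WT. Counts of Trim34a and Trim12c are uncertain, because 39.8% of the 50-base windows of Trim34a recur in Trim34b and 33% of those of Trim12c recur in other genes, among them Trim5 and Trim12a. Trim34a also overlaps Trim12a on the opposite strand over 15573 bases. The library kit keeps strand, but whether the counting used it is not given in the sources used here.

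On chromosome 7, 10 TRIM symbols lie in this neighbourhood and 7 were tested. After LPS 6 of the 7 were called higher at 3 h (21.9% of all genes) and the same number at 8 h (17% of all genes), the exception being Trim6 at both times, and 5 without Trim30c. In WT cells 3 were called at 3 h (12.7% of all genes) and 5 at 8 h (7.77%). Trim6, which in human cells makes free ubiquitin chains for interferon signalling, was at 1.36 and 1.63 CPM in p53KO and 0.414 CPM in WT at 8 h of LPS, against 1.42 and 0.452 CPM in p53KO and 0.916 CPM in WT, and these ranges overlap.

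Trim14, an adaptor without a RING finger, was nearly silent before LPS. It was at 5.14 and 4.32 CPM in p53KO at 8 h of LPS, against 0.305 and 0.271 CPM at 0 h, a description, since it passed the filter through LPS libraries alone. WT cells had 11 counts at 8 h and 0 at 0 h, at least 3.31-fold higher with the 0 h library set at a floor of 3 counts. It overlaps Nans on the opposite strand over 9852 bases, and Nans averaged 97.3 CPM. The remaining LPS-only genes moved little. Trim26, a regulator of interferon signalling, stood at 95.3 and 84.3 CPM in p53KO at 3 h of LPS against 79.1 and 62.4 CPM at 0 h (log2 change 0.55, adjusted p 7.15e-05), and at 49.99 CPM in WT against 51.3 CPM (log2 change 0.15, adjusted p 0.536). At 8 h its p53KO change was 0.24 (adjusted p 0.0686; 0.0145 with KO-1 and KO-2 as a block). In p53KO Trim26 was called lower at 3 h of IL-1b and of TNF. Trim32 (log2 change 0.32, adjusted p 0.00935) and Trim45 (0.48, adjusted p 0.0495) were called higher in p53KO at 8 h of LPS alone, and in WT their changes were -0.05 (adjusted p 0.879) and 0.35 (adjusted p 0.556). Trim32 lost its call without KO-1 at 0 h (0.27, adjusted p 0.0866) or KO-1 at 8 h (0.31, adjusted p 0.0509). Trim45 lost its call without KO-1 at 0 h (0.56), KO-2 at 0 h (0.40) or KO-2 at 8 h (0.34). It also left LPS-only with DESeq2, without a filter, with pooled 0 h libraries and without many single libraries outside that comparison, among them IL-1b and TNF libraries. With the block Trim45 was called lower at 3 h of LPS (-0.53, adjusted p 0.0489).

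**Figure D2:**
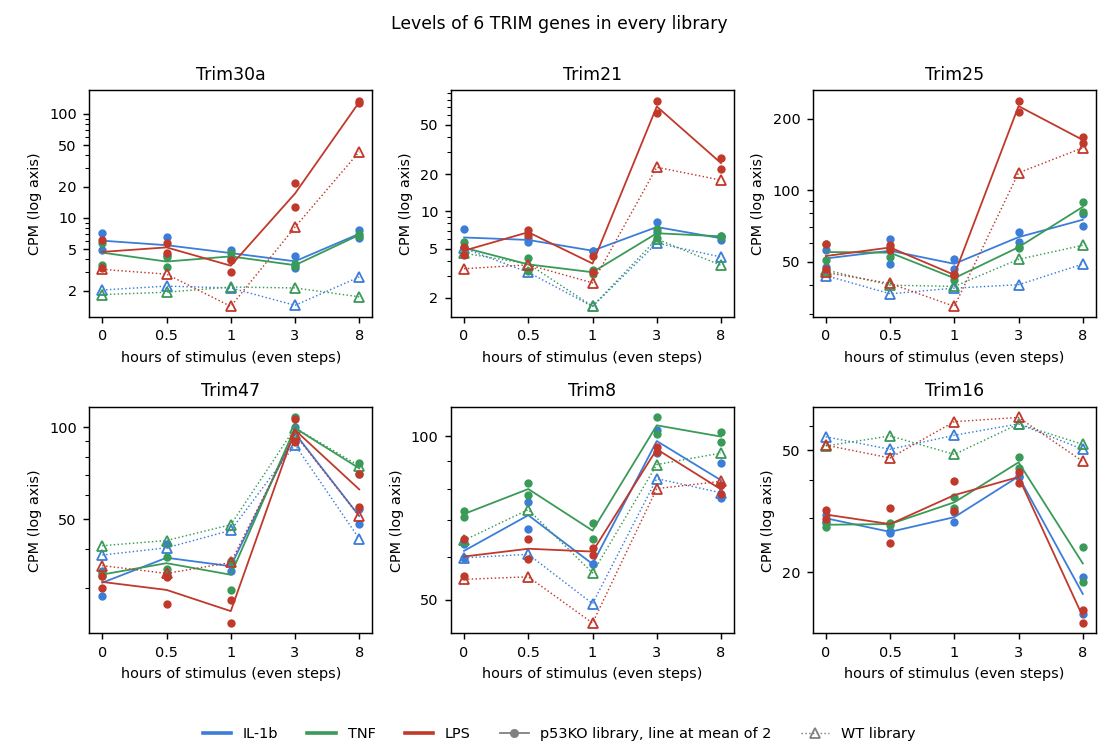
CPM on a log axis against hours of stimulus for 6 TRIM genes, with filled points for p53KO libraries (lines join the means of 2) and open triangles for WT libraries, coloured by stimulus. Trim30a and Trim21 rise far above the baseline after LPS and stay much nearer to it after the cytokines. Trim47 and Trim8 are high at 3 h of every stimulus. Trim16 is higher in every WT library than in the p53KO libraries of the same group.

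Trim25, the RIG-I ligase, rose most among the genes that also answered cytokines. At 3 h of LPS it was at 238 and 214 CPM in p53KO and 119 CPM in WT, and at 8 h at 168 and 158 CPM in p53KO and 151 CPM in WT, against 59.3 and 46.4 CPM in p53KO and 45.1 CPM in WT at 0 h. All LPS 3 h and 8 h libraries were thus at more than the highest 0 h value. The log2 change at 3 h was 2.31 (SE 0.12, adjusted p 1.56e-14) in p53KO and 1.58 (SE 0.17, adjusted p 9.71e-08) in WT. After TNF it reached 89.6 and 80.8 CPM at 8 h in p53KO, against 59.2 and 50.8 CPM at 0 h (log2 change 0.69, adjusted p 0.000122). After IL-1b the changes were 0.48 at 3 h (adjusted p 0.00218) and 0.57 at 8 h (adjusted p 0.000903), and the 3 h call was lost without KO-2 at 0 h (0.36, adjusted p 0.0548). In WT the change at 3 h of IL-1b went the other way, and the 8 h changes were 0.34 after TNF (adjusted p 0.296) and 0.16 after IL-1b (adjusted p 0.693).

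Trim56, a ligase linked to STING and double-stranded RNA signalling, also rose most at 3 h of LPS in p53KO. Unlike Trim25 it was called higher at 3 h of TNF and not at 3 h of IL-1b. It stood at 104 and 103 CPM in p53KO and 75.1 CPM in WT at 3 h of LPS, against 47.7 and 45.9 CPM in p53KO and 44.4 CPM in WT at 0 h. The log2 change was 1.35 (SE 0.09, adjusted p 8.39e-12) in p53KO and 0.94 (SE 0.14, adjusted p 1.01e-05) in WT. After TNF it was at 58 and 66.2 CPM in p53KO and 58.2 CPM in WT at 3 h, against 50.2 and 46.2 CPM in p53KO and 46.2 CPM in WT (log2 change 0.53 in p53KO, adjusted p 0.000152, and 0.45 in WT, adjusted p 0.026).

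Trim47, a SPRY member, was called higher at 3 h and at 8 h of all 3 stimuli in p53KO. At 3 h p53KO libraries held 90.4 and 100.2 CPM after IL-1b, 91 and 107 CPM after TNF and 89.3 and 106 CPM after LPS, and WT libraries held 87.5, 99.3 and 94.7 CPM after IL-1b, TNF and LPS. At 0 h all p53KO libraries lay between 28.1 and 34.1 CPM and WT libraries between 35.4 and 41.1 CPM. No 3 h library overlapped a 0 h library. The log2 changes in p53KO were 1.80, 1.75 and 1.85 after IL-1b, TNF and LPS (SE 0.14, 0.15 and 0.14), and in WT 1.30, 1.39 and 1.60 (SE 0.20 each), all with adjusted p of at most 2.37e-05. Trim47 and Trim65 overlap on the same strand over 5365 bases. Trim65, a ligase of the RNA sensor MDA5, was far lower, at 5.56 and 5.67 CPM in p53KO and 5.89 CPM in WT at 8 h of LPS, against 3.15 and 2.44 CPM in p53KO and 4.35 CPM in WT. Its p53KO log2 change of 1.11 (adjusted p 0.00442) was lost without KO-2 at 0 h (0.93, adjusted p 0.068), and the WT change was 0.49 (adjusted p 0.507). Its TNF call at 8 h (0.93, adjusted p 0.0196), which places it among the genes that also answered a cytokine, was lost without KO-1 at 0 h (0.56, adjusted p 0.237), KO-1 at 8 h (adjusted p 0.0647) or KO-2 at 8 h (adjusted p 0.0732), and with DESeq2.

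Trim8, which promotes TNF and IL-1b signalling to NF-kB, was called higher at 3 and 8 h of each stimulus in p53KO. At 3 h it was at 93.1 and 103 CPM after IL-1b, 101 and 108 CPM after TNF and 93.5 and 95.7 CPM after LPS in p53KO, against 59.7 and 63.3, 71 and 72.7, and 55.4 and 64.7 CPM at the matching 0 h. The log2 changes were 0.86, 0.71 and 0.86, and those of WT, 0.60, 0.58 and 0.74, were also called. Trim27, which acts on NF-kB and IRF signalling, was called higher at 3 and 8 h of all 3 stimuli in p53KO with log2 changes between 0.27 and 0.45. In WT it was called at 3 h of IL-1b alone (0.42, adjusted p 0.004).

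Trim16, a family member without a RING finger, went up and then below its start. At 3 h of LPS p53KO libraries held 42.5 and 39.2 CPM and at 8 h 15 and 13.6 CPM, against 31.9 and 29.7 CPM at 0 h. WT libraries held 63.8 CPM at 3 h and 45.9 CPM at 8 h, against 51.9 CPM at 0 h. The p53KO pair thus lay above its 0 h libraries at 3 h and below them at 8 h, with log2 changes of 0.61 (SE 0.13, adjusted p 0.000338) and -1.003 (SE 0.14, adjusted p 4.01e-06). In WT these were 0.48 (SE 0.17, adjusted p 0.0361) and -0.12 (SE 0.17, adjusted p 0.724). After IL-1b p53KO changed by 0.63 at 3 h (adjusted p 0.000229) and by -0.79 at 8 h (adjusted p 0.000178), and after TNF by 0.84 (adjusted p 1.92e-05) and -0.32 (adjusted p 0.0959; 0.0348 with the block). Trim39, a ligase tied to apoptosis and the cell cycle, went the same way after LPS, at 29.6 and 29.9 CPM at 3 h and 15.2 and 15 CPM at 8 h in p53KO, against 22.8 and 20.5 CPM at 0 h (log2 changes 0.67, adjusted p 0.000367, and -0.41, adjusted p 0.0333). The Trim39 fall was lost without KO-1 at 0 h (-0.33, adjusted p 0.19), without KO-1 at 8 h (-0.42, adjusted p 0.11) and without KO-2 at 8 h (-0.41, adjusted p 0.11).

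Trim28, the KAP1 co-repressor of KRAB zinc finger proteins, was the most abundant TRIM gene. It was called higher at 8 h of each stimulus in p53KO by 0.20 to 0.24 on the log2 scale, and each of these calls was lost without some single libraries. The change was 0.20 without KO-1 at 8 h of IL-1b (adjusted p 0.0932), 0.14 without KO-1 at 8 h of TNF (adjusted p 0.259) and 0.16 without KO-1 at 8 h of LPS (adjusted p 0.153). At 3 h of LPS it was called lower, with log2 changes of -0.19 (adjusted p 0.0221) in p53KO and -0.48 in WT (adjusted p 0.00039). The p53KO fall was lost without KO-1 at 0 h (adjusted p 0.143), KO-1 at 3 h (adjusted p 0.0725) or KO-2 at 3 h (adjusted p 0.142), and turned to 0.038 (adjusted p 0.66) once a trend with transcript length was removed.

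Trim36 was the only TRIM gene called higher after a cytokine and never after LPS. After 3 h of TNF it was at 3.66 and 2.31 CPM in p53KO and 2.54 CPM in WT, against 1.05 and 1.76 CPM in p53KO and 0.787 CPM in WT at 0 h. The groups did not overlap, with a log2 change of 1.25 (SE 0.38, adjusted p 0.0115) in p53KO and 1.79 (SE 0.60, adjusted p 0.0428) in WT. The p53KO call was lost without KO-1 at 0 h (0.94, adjusted p 0.12) or KO-1 at 3 h (0.89, adjusted p 0.187), and its LPS 0 h libraries, at 2.03 and 2.89 CPM, stood near the TNF 3 h level.

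After the cytokines the counts of TRIM genes were near those of all genes for rises. At 3 h, 6 were called higher after IL-1b (21% of all genes) and 7 after TNF (18.4%). At 8 h the numbers were 6 after IL-1b (12.5% of all genes) and 7 after TNF (14.5%). Falls at 3 h numbered 14 after IL-1b (21.8% of all genes) and 9 after TNF (17.6%). They were 8 after IL-1b without KO-2 at 3 h and 5 after TNF without KO-2 at 0 h. Median log2 changes at 3 h were -0.17 after IL-1b and -0.19 after TNF for the TRIM genes, against -0.02 and -0.01 over all genes. At 8 h, 2 were lower after IL-1b (11.8% of all genes), namely Trim16 and Trim24, and 2 after TNF (14.1%), namely Trim24 and Trim6. At 1 h, 4 were lower after IL-1b (3.16% of all genes; Trim13, Trim27, Trim32 and Trim59) and 3 after TNF (2.8%; Trim13, Trim32 and Trim46), with 5 after TNF under the block. These counts also moved with single libraries: after IL-1b there were 2 without KO-2 at 0 h and 1 without KO-2 at 1 h, and after TNF 1 without KO-2 at 0 h, KO-1 at 1 h or KO-2 at 1 h. The 2 falls at 8 h became 1 after IL-1b without KO-2 at 0 h or at 8 h, and after TNF 0 without KO-1 at 0 h and 1 without KO-2 at 0 h or KO-1 at 8 h. None was higher at 1 h after IL-1b (2.78% of all genes) or TNF (3.05%), with 0 and 1 at an unadjusted p under 0.05 and 0 by DESeq2. At 0.5 h of IL-1b 3 were lower (4.76% of all genes), Trim32, Trim33 and Trim44 (1 without either 0 h library and 0 without KO-2 at 0.5 h), and 0 higher (2.64%), with 1 at an unadjusted p under 0.05 and 0 by DESeq2. Those IL-1b 0.5 h libraries carried a length trend, with a Spearman correlation of -0.38 and -0.52 between gene length and level relative to the other libraries of their series. At 0.5 h of TNF 0 TRIM genes were called higher (0.606% of all genes) or lower (0.144%), with 2 and 4 at an unadjusted p under 0.05 and 0 by DESeq2.

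**Figure D3:**
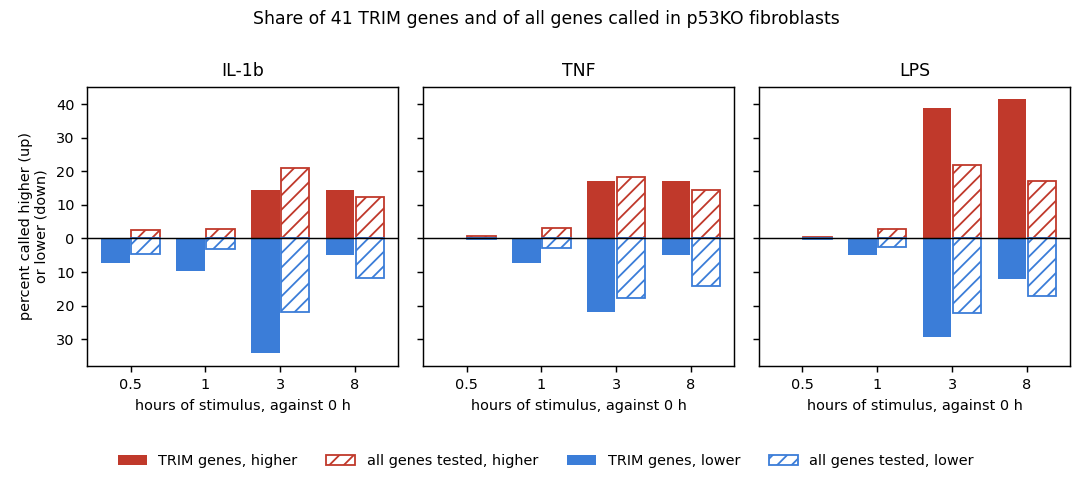
Percent of the 41 TRIM genes (filled bars) and of all 13851 genes tested (hatched bars) called higher (up) or lower (down) against 0 h in p53KO cells, by stimulus and hours. The filled bar stands well above the hatched one for rises at 3 h and 8 h of LPS, with 16 and 17 of 41 TRIM genes.

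Falls were most frequent at 3 h. The 12 TRIM genes called lower at 3 h of LPS were Trim2, Trim3, Trim7, Trim24, Trim28, Trim35, Trim37, Trim41, Trim46, Trim59, Trim62 and Trim66, and of these Trim24, Trim37 and Trim41 were also among the 5 lower at 8 h, with Trim16 and Trim39. The count at 3 h was 7 without KO-2 at 3 h and 7 once a trend with transcript length was removed. The count at 8 h was 3 without KO-1 at 0 h, 1 without KO-1 at 8 h and 3 without KO-2 at 8 h. Trim2, a ligase that binds neurofilament light chain, was at 10.2 and 14.8 CPM in p53KO and 11.3 CPM in WT at 3 h of LPS, against 30 and 28.3 CPM in p53KO and 22.4 CPM in WT at 0 h. The groups did not overlap, and the log2 change was -1.01 (SE 0.14, adjusted p 1.33e-06) in p53KO and -0.81 (SE 0.21, adjusted p 0.00508) in WT. At 8 h it stood at 22.3 and 26.3 CPM in p53KO and 25.8 CPM in WT. Trim2 also fell at 3 h of IL-1b, by 0.84 in p53KO (adjusted p 1.63e-05) and by 0.87 in WT (adjusted p 0.00171). It is the lowered gene whose promoter holds ISRE letters.

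Trim24, a bromodomain co-regulator of transcription and ligase of p53, was called lower at 3 and 8 h of every stimulus in p53KO. At 3 h of IL-1b it was at 29.9 and 28.2 CPM in p53KO and 24.5 CPM in WT, against 50.2 and 53 CPM in p53KO and 45 CPM in WT at 0 h. The log2 change was -0.64 (SE 0.09, adjusted p 4.11e-06) in p53KO and -0.76 (SE 0.13, adjusted p 0.000134) in WT. The 8 h changes were smaller, from -0.33 to -0.25. The IL-1b call at 8 h was lost without KO-2 at 0 h (-0.30, adjusted p 0.0694) or KO-2 at 8 h (-0.27, adjusted p 0.0965). The TNF call at 8 h was lost without any 1 of its 4 libraries (-0.34 to -0.18, adjusted p 0.051 to 0.224), and the LPS call at 8 h without KO-1 at 0 h (-0.23, adjusted p 0.129) or KO-1 at 8 h (-0.17, adjusted p 0.256). Trim37, a ligase that limits centrosome copies, fell at 3 h of LPS by 0.54 in p53KO (adjusted p 1.74e-05) and by 0.68 in WT (adjusted p 0.000315). Trim35, the second most abundant member, fell at 3 h of LPS by 0.49 in p53KO (adjusted p 4.07e-06), while its WT change was -0.12 (adjusted p 0.424). With a trend on transcript length removed, Trim35 left the lowered genes and joined LPS-only.

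The deepest falls by fitted log2 change were in scarce genes, Trim6 and Trim7, and DESeq2 called neither of them lower at 1, 3 or 8 h in p53KO. Trim7, a ligase named for binding glycogenin, was at 0.599 and 0.345 CPM in p53KO and 1.36 CPM in WT at 3 h of LPS, against 1.73 and 1.44 CPM in p53KO and 5.15 CPM in WT. The change was -1.52 (SE 0.47, adjusted p 0.0104) in p53KO and -1.73 (SE 0.44, adjusted p 0.0049) in WT, and the p53KO call was lost without KO-1 at 0 h (-1.39, adjusted p 0.0539) or KO-2 at 3 h (-1.18, adjusted p 0.127). Trim6 was at 0.311 and 0.221 CPM in p53KO at 3 h of IL-1b, against 1.59 and 0.938 CPM at 0 h (-2.02, SE 0.61, adjusted p 0.0095), and lost the call without KO-1 at 0 h (-1.58, adjusted p 0.107) or KO-2 at 3 h (-1.81, adjusted p 0.0742). Trim46, a neuronal microtubule protein, was at 7.9 and 9.53 CPM in p53KO and 9.9 CPM in WT at 3 h of LPS, against 19.7 and 19.8 CPM in p53KO and 12.3 CPM in WT (log2 change -0.97 in p53KO, adjusted p 0.000303, and -0.12 in WT, adjusted p 0.818). Trim12a, LPS-only by its rises, fell at 3 h of IL-1b to 2.59 and 2.66 CPM in p53KO, against 6.52 and 5.35 CPM at 0 h (-0.99, SE 0.25, adjusted p 0.0023), and Trim12c by 0.74 there (adjusted p 0.00217; -0.51 and adjusted p 0.0729 without KO-2 at 3 h).

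Of the remaining lowered genes, Trim59 and Trim13, both anchored in membranes, were called at 1 h. Trim13 was lower by 0.64 at 1 h of IL-1b (adjusted p 0.0145) and by 0.61 at 1 h of TNF (adjusted p 0.0348). The first call was lost without KO-2 at 0 h, KO-1 at 1 h or KO-2 at 1 h (adjusted p 0.0768 to 0.168), the other without any 1 of the 4 libraries (adjusted p 0.101 to 0.21), and DESeq2 made neither. Trim59 was at 75.1 and 57.5 CPM in p53KO and 66.8 CPM in WT at 1 h of IL-1b, against 108 and 104 CPM in p53KO and 101 CPM in WT at 0 h, and the groups did not overlap. The log2 change was -0.60 in p53KO (adjusted p 0.00145) and -0.49 in WT (adjusted p 0.131; 0.0194 with KO-1 and KO-2 as a block), and the p53KO call was lost without KO-2 at 1 h (-0.42, adjusted p 0.0891). With the block Trim59 was also called lower at 1 h of TNF (-0.39, adjusted p 0.00462) and of LPS (-0.35, adjusted p 0.0122). Further calls of Trim59 under the block were -0.23 at 3 h of IL-1b (adjusted p 0.0353), -0.26 at 3 h of TNF (adjusted p 0.0231) and -0.22 at 8 h of LPS (adjusted p 0.0482). Trim62, a ligase that acts on CARD9, fell at 3 h of all 3 stimuli in p53KO, by 0.67 after IL-1b, 0.78 with TNF and 0.68 with LPS (adjusted p 0.00211, 0.00126 and 0.00245), and in WT by 0.94 after LPS (adjusted p 0.0344). At 3 h of TNF its WT change went the other way. The IL-1b call was lost without KO-2 at 0 h (-0.48, adjusted p 0.0752). Trim66, a chromatin reader, was called at the same 3 times, with log2 changes of -0.97, -0.88 and -0.78 in p53KO and of -0.50, -0.26 and 0.09 in WT, none of the WT changes being called. Each p53KO call was lost without KO-1 at 3 h (-0.72, -0.67 and -0.50, adjusted p 0.113, 0.178 and 0.278). Trim68, which acts in androgen receptor and interferon signalling in human cells, was called lower at 3 h of IL-1b (-0.86, adjusted p 0.00497) and TNF (-0.84, adjusted p 0.0126). It lost the IL-1b call without KO-1 at 3 h (-0.60, adjusted p 0.115) and the TNF call without KO-1 at 0 h (adjusted p 0.0616) or KO-1 at 3 h (adjusted p 0.0909). Trim3, a ligase with NHL repeats, Trim23, which carries an ARF domain, and Trim41 had called changes no larger than 0.37 on the log2 scale, and the calls of Trim3 and Trim41 at 3 h of LPS were lost without any 1 of the 4 libraries.

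The 5 genes with no call at 1 to 8 h in p53KO were Trim44, Trim33, Trim11, Trim71 and Trim69. With a trend on transcript length removed Trim44 joined LPS-only, Trim33 and Trim11 joined the genes higher after LPS and cytokines, and Trim3, Trim23 and Trim41 took their place. Trim44, a family member without a RING finger, had a lowest, median and highest level of 127, 158 and 183 CPM over the 30 p53KO libraries and 97, 146 and 170.03 CPM over the 15 WT libraries, and it was called lower in WT at 3 h of IL-1b. Trim33, a SMAD4 ligase and transcription co-regulator, ran at 49, 65 and 77.2 CPM in p53KO and 40.4, 54.8 and 61.5 CPM in WT. Trim11 ran at 9.58, 14.2 and 18.8 CPM in p53KO and 13.2, 23.2 and 32.4 CPM in WT, and it was called higher in WT at 8 h of IL-1b (log2 change 0.60, adjusted p 0.0498). Trim71, a stem cell gene that represses mRNAs, had medians of 1.24 CPM in p53KO and 0.310 CPM in WT, and Trim69 had medians of 0.337 CPM in p53KO and 0.159 CPM in WT. For these last 2 genes the log2 SE at 8 h of LPS was 0.48 and 0.60, so that only large changes of these scarce genes would have been detectable. Per kilobase of exon, the order at 0 h in p53KO was led by Trim28 at 101 CPM per kb (median of 6 libraries), then Trim35 at 57.5, Trim59 at 32.8, Trim44 at 30.04 and Trim32 at 17.4 CPM per kb. The 0 h ranges of Trim59 (31.1 to 37.2 CPM per kb) and Trim44 (29.4 to 31.3) overlap.

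Changes after LPS were then set against those after each cytokine in the same fit. At 3 h 9 TRIM genes changed more after LPS than after TNF (1.63% of all genes), and 9 more than after IL-1b (1.41% of all genes). Both lists hold Trim12a, Trim12c, Trim21, Trim25, Trim26, Trim30a, Trim30d, Trim34a and Trim56. Trim21 differed most, by 3.52 from TNF (SE 0.28, adjusted p 4.81e-09) and 3.61 from IL-1b (SE 0.25, adjusted p 2.67e-10), followed among the abundant genes by Trim25, by 2.08 (SE 0.17, adjusted p 5.72e-09) and 1.83 (SE 0.17, adjusted p 2.35e-08). At 8 h 9 changed more after LPS than after TNF (3.47% of all genes) and 9 more than after IL-1b (3.43% of all genes), with Trim30a furthest at 4.26 from TNF (SE 0.41, adjusted p 4.19e-08) and 4.65 from IL-1b (SE 0.36, adjusted p 5.48e-10). Those 2 comparisons share the LPS libraries. The 3 h count against TNF was 4 without KO-1 at 0 h of TNF. With the block Trim26 also changed more after LPS than after TNF at 8 h (0.45, adjusted p 0.0123). Between IL-1b and TNF 0 TRIM genes were called in either direction at 1, 3 or 8 h (edgeR), where 0 to 0.267% of all genes were. Of these 41 genes 0 to 3 passed an unadjusted p of 0.05 in each direction at each time. The 8 h lists share Trim12a, Trim12c, Trim14, Trim21, Trim25, Trim30a, Trim30d and Trim34a. Trim14 passed the filter through LPS libraries alone, so its place in both 8 h lists and their counts is a description. None changed less after LPS in these 4 comparisons, where 0.202% to 0.931% of all genes did, with 2 to 4 TRIM genes at an unadjusted p under 0.05 in each; with the block, Trim16 did against TNF at 8 h (-0.67, SE 0.17, adjusted p 0.0155).

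From 3 to 8 h of LPS the members parted. In p53KO 15 TRIM genes were higher at 8 h than at 3 h (20.2% of all genes) and 8 lower (18% of all genes). Trim30a rose further by 2.82 on the log2 scale (SE 0.19, adjusted p 9.75e-12), Trim30d by 1.82, Trim12c by 1.60, Trim14 by 1.31, Trim12a by 0.86 and Trim34a by 0.78. Trim14 is among the 15 as a description, since it passed the filter through LPS libraries alone. Trim21 fell by 1.63 (SE 0.13, adjusted p 2.35e-10), Trim56 by 0.73 and Trim25 by 0.58. Of the LPS-only genes with ISRE letters, Trim21 and Trim26 were called lower at 8 h than at 3 h, and Trim12a, Trim12c, Trim30a, Trim30d and Trim34a higher. The Trim26 call was lost without KO-1 at 3 h (-0.23, adjusted p 0.176), KO-1 at 8 h (adjusted p 0.0607) or KO-2 at 8 h (adjusted p 0.0535), and the Trim34a call without KO-2 at 3 h (adjusted p 0.0694). After IL-1b 12 TRIM genes were higher at 8 h than at 3 h (18.5% of all genes) and 4 lower (17%), and after TNF 6 were higher (12.3%; 3 without KO-1 at 8 h) and 3 lower (12.6%). With the block Trim30a was also higher at 8 h than at 3 h of IL-1b (0.72, adjusted p 0.0151) and TNF (0.82, adjusted p 0.0123).

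The WT libraries were not used to set the classes. At 3 h of LPS all 16 TRIM genes called higher in p53KO also changed upward in WT and 10 of them were called. At 8 h 16 of 17 did, with Trim32 the exception, and 10 were called. Without Trim14, Trim30c and Trim69, kept by the filter for a high LPS level, p53KO had 14 higher calls at 3 h and 15 at 8 h. WT then had 9 at each time. The share of all genes with the same direction in WT was 93% at 3 h and 92.1% at 8 h, so agreement in direction was common in the whole table. WT calls numbered 10 higher at 3 h of LPS (12.7% of all genes) and 10 at 8 h (7.77%), and 8 lower at 3 h (11.7%) and 1 at 8 h (6.19%), which was Trim59 (log2 change -0.54, adjusted p 0.035). Of 12 TRIM genes lower at 3 h of LPS in p53KO 10 changed downward in WT (92.3% of all genes), the others being Trim41 and Trim66. All 14 lower at 3 h of IL-1b did (90%), and 6 of 9 lower at 3 h of TNF (92.7%), all but Trim23, Trim26 and Trim62. Direction also differed in WT for Trim25 at 3 h of IL-1b, Trim6 and Trim28 at 8 h of TNF and Trim39 at 8 h of LPS. After cytokines WT had 3 higher calls at 3 h of IL-1b (12.8% of all genes; Trim8, Trim27 and Trim47) and 4 at 3 h of TNF (8.42%; Trim8, Trim36, Trim47 and Trim56). Lower calls at 3 h were 4 after IL-1b (14.2%; Trim2, Trim24, Trim37 and Trim44) and 2 after TNF (7.31%; Trim28 and Trim37). At 8 h Trim11 was called higher after IL-1b (4.18% of all genes) and Trim8 and Trim47 after TNF (4.61%), with 0 called lower after IL-1b (4.3%) or TNF (4.44%). At 1 h 4 were lower after IL-1b (2.02%; Trim13, Trim21, Trim27 and Trim32) and 3 after LPS (1.18%; Trim27, Trim32 and Trim65), against 0 after TNF (1.1%), and 0 were higher (2.5% of all genes for IL-1b, 2% for TNF and 2.04% for LPS). At 0.5 h 0 were called in either direction (0.484% of all genes higher and 0.0217% lower after IL-1b, 0.375% and 0.00722% after TNF, 0.26% and 0% after LPS). By edgeR these comparisons with 0 calls had 0 to 8 TRIM genes at an unadjusted p under 0.05, and DESeq2 also made 0 calls in each.

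**Figure D4:**
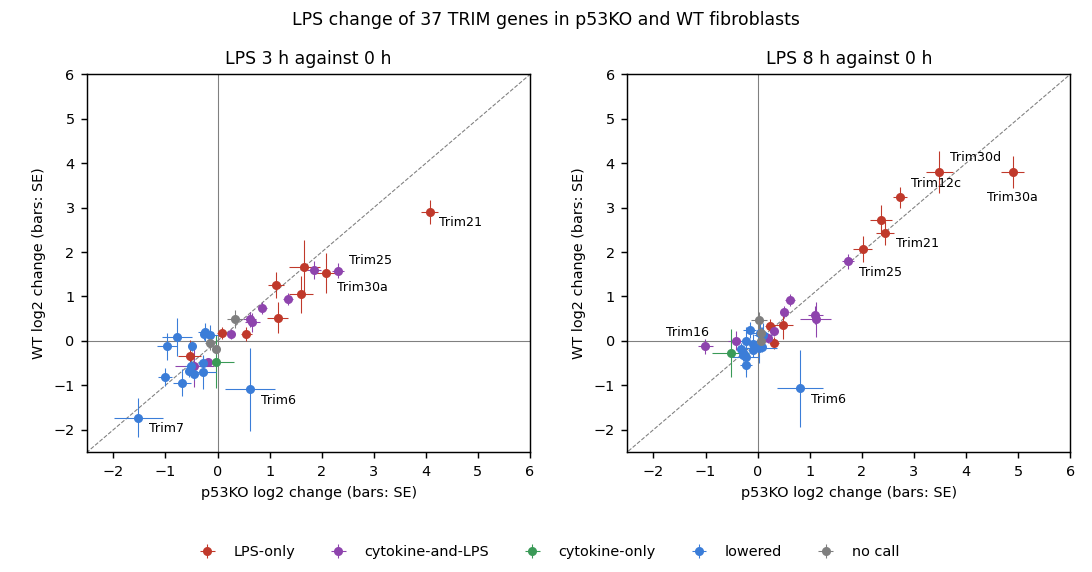
Log2 change after LPS in p53KO cells (horizontal, 2 libraries a group) against WT cells (vertical, 1 library a group) at 3 h and 8 h for 37 TRIM genes, coloured by class, with SE bars and a dashed line of equal change. Trim30c, Trim14, Trim69 and Trim71, with few or 0 counts in WT, are left out. Most genes lie near the line, Trim21 and Trim25 are below it at 3 h, and Trim30a and Trim16 are off it at 8 h.

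Whether a change itself differed between genotypes was tested per stimulus and time. Of 41 TRIM genes 1 passed, Trim44 at 3 h of IL-1b (2.91% of all genes had a call in that direction), and the other comparisons had 0 calls by edgeR, with 0 to 6 at an unadjusted p under 0.05. It was at 133 and 138 CPM in p53KO and 97 CPM in WT at 3 h, against 167 and 170.4 CPM in p53KO and 158 CPM in WT at 0 h, a difference of changes of 0.45 (SE 0.12, adjusted p 0.0382). The call was lost without any 1 of the 4 p53KO libraries (0.40 to 0.48, adjusted p 0.0558 to 0.144). The WT IL-1b 3 h library had a Spearman correlation of -0.47 between gene length and relative level, and its part in this difference was not tested. Next came Trim16 at 8 h of LPS (-0.88, SE 0.22, adjusted p 0.0594), Trim25 at 3 h of LPS (0.73, SE 0.21, adjusted p 0.0993) and Trim21 at 3 h of LPS (1.16, SE 0.35, adjusted p 0.144). With KO-1 and KO-2 as a block, Trim16 (-0.88, SE 0.19, adjusted p 0.00949) and Trim25 (0.73, SE 0.16, adjusted p 0.00913) passed.

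With the 15 libraries of KO-1, KO-2 and WT summed, 17 of 38 TRIM genes tested were higher in p53KO (21.1% of all genes) and 4 lower (19.2% of all genes). The median log2 difference was 0.19 over the TRIM genes and 0.00 over all genes. With 2 p53KO totals and 1 WT total, genotype and the source of each series of libraries cannot be told apart. Trim30a (log2 difference 1.29, SE 0.10, adjusted p 7.4e-05) and Trim30d (1.05, SE 0.13, adjusted p 0.000658) were higher in p53KO. At 0 h, before any stimulus, Trim30a ran from 3.34 to 7.23 CPM in 6 p53KO libraries and from 1.84 to 3.21 CPM in 3 WT libraries, and these do not overlap. Trim16 (-0.94, SE 0.06, adjusted p 3.7e-05), Trim11 (-0.82, SE 0.07, adjusted p 0.00014) and Trim7 (-1.41, SE 0.17, adjusted p 0.000772) were lower in p53KO. Trim16 at 0 h held 28 to 31.9 CPM in p53KO and 51.6 to 55.2 CPM in WT. Trim71 had the largest difference (1.65, SE 0.29, adjusted p 0.00359) at low counts. Of the LPS-only genes 9 were tested and 6 were higher in p53KO, with none lower. That class was set from high levels in p53KO LPS libraries, which are also in these totals. Its count here is thus a description and no test. In a fit of the 0 h libraries alone 5 of the 21 calls were lost: Trim6, Trim21, Trim25, Trim28 and Trim37. That fit took the 6 p53KO and 3 WT libraries as replicates, although libraries of 1 series are not independent, so the calls it kept are no check on the series.

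**Figure D5:**
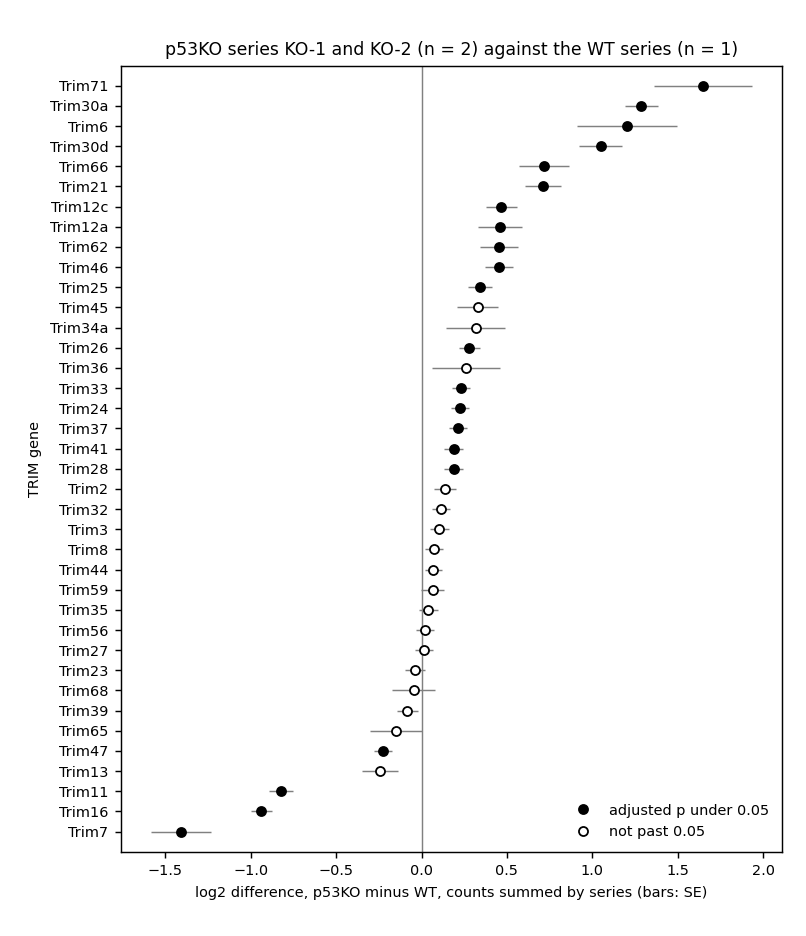
Log2 difference of p53KO minus WT for 38 TRIM genes from totals of 15 libraries (bars are SE, 2 p53KO totals and 1 WT total), with filled points at adjusted p under 0.05. Trim71, Trim30a, Trim6 and Trim30d are at the upper end, from 1.65 to 1.05, and Trim7, Trim16 and Trim11 at the lower end.

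Calls were also counted by domain, in lists made with earlier results of these data known. Of all genes 21.9% were higher and 22.1% lower at 3 h of LPS in p53KO, and 17% higher and 17.2% lower at 8 h. Of 21 genes tested from a SPRY list 12 were higher and 4 lower at 3 h, and 11 higher and 2 lower at 8 h. The list was made by symbol, and no protein sequence was checked for the domain. This holds for Trim12a, too, which was called higher at both times. Without Trim30c 11 and 10 were higher. That list left out Trim14 and Trim16, listed apart as members without a RING finger and both called higher at 3 h. Of 4 PHD-bromodomain genes, which bind chromatin, 3 were lower at 3 h of LPS: Trim24, Trim28 and Trim66. A further list of 5 held Trim2, Trim3, Trim32 and Trim71, which carry NHL repeats, and Trim45. Of these, 2 were lower at 3 h, Trim2 and Trim3, and 2 higher at 8 h, Trim32 and Trim45. Of 19 TRIM genes tested from a list of innate signalling and antiviral members, 13 were higher at 3 h and 13 at 8 h of LPS, with 2 lower at 3 h (Trim35 and Trim62) and 0 at 8 h, and 11 higher at each time without Trim14 and Trim30c. In WT cells that list had 8 higher and 1 lower at 3 h (12.7% and 11.7% of all genes) and 10 higher and 0 lower at 8 h (7.77% and 6.19%). Without Trim14 the WT rises were 7 and 9. After IL-1b at 3 h that list had 3 higher and 6 lower (21% and 21.8% of all genes), and after TNF 3 higher and 4 lower (18.4% and 17.6%).

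Partners of the TRIM genes in RIG-I and interferon signalling were counted in the same way. Of 23 genes tested from a list of 25, 19 were higher and 2 lower at 3 h of LPS in p53KO (21.9% and 22.1% of all genes; median log2 change 1.08, against -0.02 over all genes), and 19 were higher and 0 lower at 8 h (17% and 17.2%; median 2.03). At 8 h of IL-1b 12 were higher and 0 lower (12.5% and 11.8% of all genes), and at 8 h of TNF 9 were higher and 0 lower (14.5% and 14.1%). Ddx58, which encodes RIG-I, rose by 2.81 at 8 h of LPS (SE 0.13, adjusted p 1.27e-15), and Irf7, an interferon regulatory factor, by 5.37 (SE 0.17, adjusted p 1.32e-18). Tlr4, the LPS receptor, fell by 0.73 at 3 h of LPS (adjusted p 0.00641), and Mavs, the adaptor of RIG-I, by 0.45 (adjusted p 0.00127). Ifnb1, the gene of interferon beta, lay under the filter and was not tested. Pml, a TRIM gene under another symbol that builds nuclear bodies, rose in p53KO by 1.76 at 8 h of LPS (SE 0.10, adjusted p 3.57e-13) and fell by 1.08 at 3 h of IL-1b (adjusted p 1.09e-07) and by 0.99 at 3 h of TNF (adjusted p 7.55e-07). At 3 h of LPS the Pml change was 0.47 in p53KO (adjusted p 0.00116) and -0.73 in WT (adjusted p 0.00181). Mid2, another one and a microtubule-associated ligase, fell in p53KO by 1.20 at 8 h of LPS (adjusted p 5.72e-08).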

How the data were processed

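Polyadenylated RNA of mouse embryonic fibroblasts was sequenced as stranded paired-end libraries, per the labels' protocols. The authors deposited raw read counts per Ensembl gene of mm9; the submitters' processing notes name STAR, featureCounts and DESeq without versions. Rows that name no gene (22.7% to 27.5% of counts in a library) were left out, and no column of other samples was present. Symbols came from GENCODE M21 and matched 32919 of 37991 gene rows. Levels are CPM, counts scaled to each library's total over genes; intervals and floors cover counting error only.

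Genes that reached 1 CPM in 2 or more libraries were fitted with edgeR 4.0.16 in R 4.3.3 (quasi-likelihood, 30 group means, TMM scaling, 15 residual degrees of freedom), with Benjamini-Hochberg adjustment over 13851 genes in each comparison and calls at an adjusted p under 0.05. Genotype was also tested on counts summed over KO-1, KO-2 and WT (12918 genes, 1 residual degree of freedom). The fit was tested on simulated counts with known changes. KO-1 and KO-2 are named in every p53KO group, so a fit with that name as a block was also made, which added 39 calls and is given beside values it changes; over 105 pairs of groups the deviations of same-numbered libraries had a median correlation of 0.192 (-0.132 to 0.468), with 74 pairs over 0.1. Alternatives were DESeq2 1.42.0, other filters and scalings, pooled 0 h libraries, left-out libraries and a removed length trend, the last chosen after seeing the data.

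The TRIM genes, the domain, innate, pathway and other-symbol lists and the motifs were chosen with earlier results of these data known. Every TRIM gene was placed in a class. Values were given for the largest rises after LPS at 8 h and after cytokines at 3 h, the largest falls, the genes with no call and the smallest adjusted p for differences between genotypes and stimuli, and for genes with listed roles. The values of 1 gene of the pathway list are not reported here.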

Additional observations from a re-analysis of the deposited data

Results flagged for a closer look

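Trim44 at 3 h of IL-1b was the TRIM gene whose change differed between genotypes by the test of that difference, at 0.45 on the log2 scale (p53KO change minus WT change, adjusted p 0.0382). Its change was -0.14 in p53KO (adjusted p 0.119) and -0.59 in WT (adjusted p 0.000107), the WT value resting on 1 library at each time. The level was lower at 3 h than at 0 h in KO-1, KO-2 and WT.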

How the results depend on the processing

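In each sentence the count without an alternative stands in parentheses after its name, and the cause of a change was not tested. With DESeq2, counts of lower TRIM genes in p53KO were 1 at 0.5 h of IL-1b (3), 2 at 1 h of IL-1b (4), 1 at 8 h of IL-1b (2), 1 at 1 h of TNF (3), 5 at 3 h of TNF (9), 0 at 8 h of TNF (2), 0 at 1 h of LPS (2) and 1 at 8 h of LPS (5). In WT DESeq2 gave 1 lower at 1 h of IL-1b (4), 0 higher at 8 h of IL-1b (1), 2 higher at 3 h of TNF (4), 1 lower at 1 h of LPS (3) and 5 lower at 3 h of LPS (8). With the 0 h libraries pooled, lower counts in p53KO were 8 at 0.5 h of IL-1b (3), 4 at 8 h of IL-1b (2), 7 at 1 h of TNF (3), 4 at 8 h of TNF (2) and 7 at 1 h of LPS (2), and higher counts 1 at 0.5 h of TNF (0) and 1 at 1 h of LPS (0). Pooling gave in WT 6 higher at 3 h of IL-1b (3), 2 higher at 8 h of IL-1b (1), 1 lower at 1 h of TNF (0), 6 lower at 1 h of LPS (3) and 2 lower at 8 h of LPS (1). For changes that differ by genotype, pooling gave 2 higher at 3 h of IL-1b (1), 2 higher and 1 lower at 3 h of LPS (0 each), and 1 lower at 8 h of IL-1b (0) and of LPS (0). The block of KO-1 and KO-2 gave 5 lower at 1 h of TNF (3), 5 lower at 1 h of LPS (2), 1 genotype difference higher at 3 h (0) and 1 lower at 8 h (0) of LPS, and 1 lower for LPS minus TNF at 8 h (0); none of 200 calls of single genes was lost under it, and 39 calls were added, 10 of them in WT. With the length trend removed, IL-1b at 3 h had 10 higher (6) and 9 lower (14), TNF 1 higher at 1 h (0) and 1 lower at 8 h (2), and LPS 0 lower at 1 h (2), 7 lower at 3 h (12) and 1 lower at 8 h (5). Without a filter lower counts were 1 at 8 h of TNF (2) and 3 at 8 h of LPS (5), and with at least 1 CPM in 15 libraries 1 at 8 h of TNF (2).

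Of the classes, cytokine-only (1) held 0 with DESeq2, 2 without a filter and 6 with pooled 0 h libraries. Lowered (15) held 9 with DESeq2 and 4 at 2-fold, cytokine-and-LPS (9) held 1 at 2-fold, and no call (5) held 14 with DESeq2, 8 with the stricter filter, 1 with pooled 0 h libraries, 24 at 2-fold and 3 with 0.5 h added. The Trim28 change at 3 h of LPS was 0.038 on the log2 scale with the length trend removed, against -0.19.

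Leaving out 1 p53KO library, where the lone library left is assumed to vary like the other groups, gave these ranges for counts that moved by over 1.5 times: lower at IL-1b 0.5 h 0 to 3, 1 h 1 to 3, 3 h 8 to 12 and 8 h 1 to 2; lower at TNF 1 h 1 to 2, 3 h 5 to 7 and 8 h 0 to 2; lower at LPS 1 h 0 to 0, 3 h 7 to 10 and 8 h 1 to 4. The range was 4 to 9 for LPS minus TNF at 3 h, with 0 to 1 lower there and 0 to 1 lower at 8 h, 3 to 6 for higher at 8 h than at 3 h of TNF, 0 to 0 for the genotype difference at 3 h of IL-1b and 0 to 1 at 3 h of LPS, 0 to 3 for cytokine-only and 3 to 7 for no call. Cytokine-only held 3 without KO-2 at 0 h of LPS, 2 without KO-1 at 8 h of LPS and 0 without KO-1 at 0 h or 3 h of TNF; no call held 3 without KO-1 at 3 h of LPS; and the 1 genotype difference at 3 h of LPS came without KO-1 at 0 h. Rises after LPS stayed at 16 to 17 at 3 h and 14 to 17 at 8 h, and LPS-only at 9 to 11. Over single genes, 119 of 167 calls kept direction and threshold with DESeq2, 272 of 273 with its size factors, and 760 of 944 without 1 library. LPS-only kept its size more than its members. Trim21 or Trim45 left it without most single p53KO libraries, and Trim12c left it without KO-1 at 0 h of TNF. Trim6, Trim11 or Trim65 joined it without others, and Trim30a and Trim45 left it without a filter. Depth limits Trim30c and Trim69 most, with 0 to 5 and 0 to 4 counts in the WT libraries.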
